A study of Mus musculus with 16 samples.

Results

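The quantity described here is a difference between knockout effects in mouse liver: how far each gene moved from its own controls when ARID1A and ARID1B were both deleted, minus how far it moved from its own controls when ARID1B alone was deleted. All 16 of the series' 16 libraries entered, 4 in each of 4 groups. The double knockout (DKO) livers carried ARID1A f/f and ARID1B f/f alleles with Alb-Cre+, and their controls carried the same floxed alleles with Alb-Cre-. The ARID1B knockout (BKO) livers carried ARID1B f/f with Alb-Cre+, and their controls ARID1B f/f with Alb-Cre-. The 2 experiments were deposited as separate tables of read counts, so a knockout was compared only with the controls of its own table, and the DKO and BKO livers were never set against each other directly. Of 24394 gene names present in both tables, 14050 passed a filter on low counts and were tested. Cre was driven by the albumin promoter, which is active in hepatocytes and their fetal precursors, while RNA came from whole liver. No group lacked ARID1A alone, so the ARID1A-only effect is outside the design. None carried Cre without floxed alleles, so within each experiment the presence of Cre cannot be told apart from the deletion. Each knockout was made in only 1 of the 2 experiments. Whether a difference goes with the added loss of ARID1A or with the experiment therefore cannot be told apart. Age and strain are not in the labels. Counts of Xist (17511 to 86791) and of 4 Y-linked genes (no more than 1 in all per library) put every library on the female side. Nothing beyond the library tags says that the 4 libraries of a group came from separate animals, and 2 BKO control tags (F5 and F5-2) share a number, so p-values measure the spread between libraries.

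ARID1A and ARID1B are alternative subunits of canonical BAF, the SWI/SNF complex that uses ATP to move nucleosomes and open regulatory DNA. A given BAF complex holds one or the other, and loss of one leaves complexes built on its paralog. In adult liver the complex works with hepatocyte transcription factors at enhancers of metabolic genes. Contrasting loss of both paralogs with loss of ARID1B alone asks which effects of the double loss are larger or smaller than those of losing ARID1B.

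Libraries of the DKO table held 8687313 to 11016869 counts, and those of the BKO table were deeper, with 21123784 to 40494639. Levels below are CPM, counts scaled to a library total with TMM normalization, whose factors were 1.03 to 1.25 in DKO and 0.843 to 1.01 in the other groups. The share of counts from albumin, an abundant hepatocyte transcript, was 3.76 to 6.39% in DKO, 8.64 to 9.95% in their controls, 6.78 to 9.32% in BKO and 7.30 to 8.24% in theirs. Values by library are given in the order DKO-7068, DKO-7070, DKO-7112, DKO-7137 for DKO, WT-7067, WT-7069, WT-7114, WT-7139 for their controls, F1, F3, F4, F6 for BKO and F2, F5-2, F5, F7 for theirs. Both deleted genes kept reads in every library; counts are given for the gene as a whole, and no exon-level values were used here. Arid1b stood at 51.3, 57.3, 72.8 and 42.2 CPM in the DKO livers and 76.2, 77.9, 92.2 and 92.5 CPM in their controls. It stood at 44.5, 50.2, 42.6 and 51.8 CPM in the BKO livers and 90.8, 91.0, 92.2 and 87.2 CPM in theirs. Arid1b fell in both knockouts, with log2 effects of -0.60 in DKO (adjusted p = 0.00162) and -0.93 in BKO (adjusted p = 0.00225, edgeR), and its difference of 0.33 did not pass the test (adjusted p = 0.209; 0.0350 when libraries were scaled by total counts only). Arid1a stood at 102, 93.0, 99.3 and 106 CPM in the DKO livers and 121, 107, 129 and 113 CPM in their controls. The Arid1a level in the other experiment was 138, 147, 115 and 145 CPM in the BKO livers and 126, 141, 135 and 121 CPM in theirs. For Arid1a every DKO library was below every control of its own experiment. The Arid1a difference in whole-gene counts was -0.29 (95% interval -0.58 to -0.0042) and did not pass after adjustment (adjusted p = 0.137, edgeR).

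The double knockout moved a large part of the liver transcriptome further from its controls than the ARID1B knockout did. Genes of the fetal liver, matrix, recruited macrophages and mitosis lay on the positive side, and pericentral, detoxification, bile acid and lipid synthesis genes on the negative side. The difference passed the test in 3162 of 14050 genes (22.5%, edgeR's quasi-likelihood test with Benjamini-Hochberg adjustment over all genes tested, adjusted p under 0.05). It was positive in 1552 (11.0%), meaning a higher effect in DKO than in BKO, and negative in 1610 (11.5%). At least a 2-fold difference was estimated for 1122 of the positive and 660 of the negative genes. In the same fit the DKO effect passed for 5350 genes (38.1%) and the BKO effect for 50 (0.356%, with 1462 at an unadjusted p under 0.05). Taken over their own control mean, without a model, the 4 DKO libraries did not overlap the 4 BKO libraries for 5362 genes (38.2%). The scale mattered for the balance of directions. With total counts in place of TMM the median difference of all genes moved from -0.0096 to 0.268 on the log2 scale, and 2627 genes were positive against 744 negative, 77.9% positive in place of 49.1%.

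**Figure D1:**
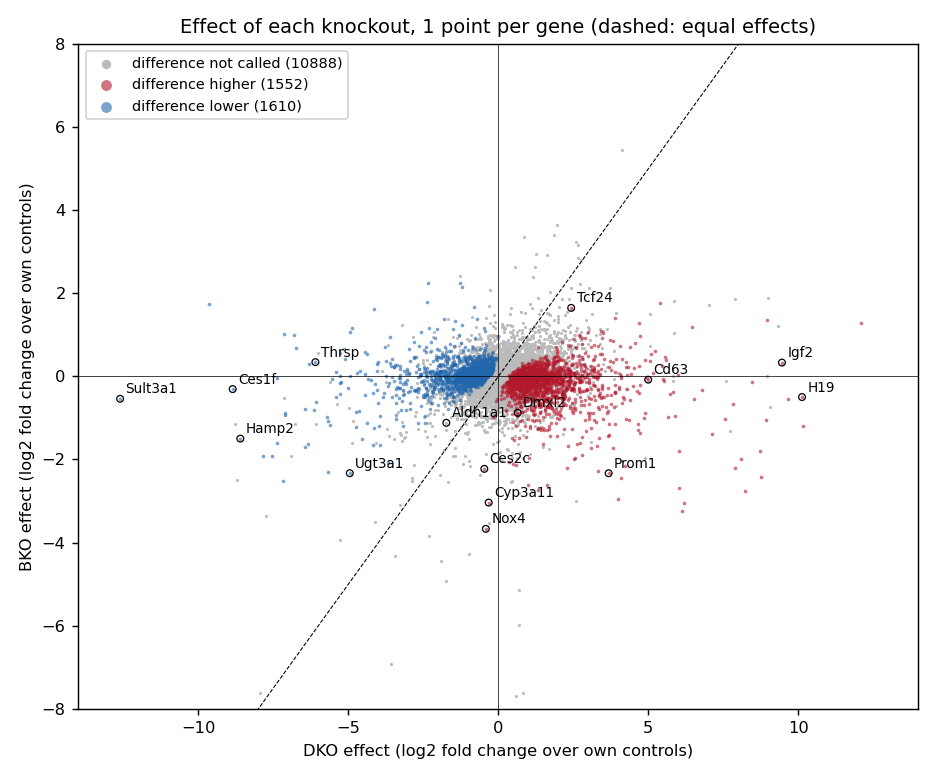
DKO effect (horizontal, log2 fold change over own controls) against BKO effect (vertical, the same scale), 1 point for each of 14050 genes tested. Red points have a called positive difference (1552) and blue points a called negative one (1610), grey points were not called, and the dashed line marks equal effects. The cloud is wide and flat: genes spread along the DKO axis, while few leave the centre of the BKO axis.

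Sorted by which effects passed, the called differences were almost all of 1 kind. In 2953 genes the DKO effect and the difference passed and the BKO effect did not (1446 positive, 1507 negative). A further 189 passed for the difference alone, 8 passed for the difference and BKO but not DKO, 11 moved the same way in both knockouts by unequal amounts, and 1 moved in opposite directions. Among the 2953, the 95% interval of the BKO effect stayed within ±50% of the DKO effect for 1462 genes (49.5%), and it held 0 for 2646 (89.6%). For the remaining genes the interval reached past that band on at least 1 side, in the direction of the DKO effect or against it. Across genes that rose in DKO the median effect was 1.17 in DKO and 0.03 in BKO, and 54.7% of them were called for the difference. Across genes that fell in DKO the medians were -0.69 and -0.04, with 56.1% called. The genes that passed in DKO without a called difference, 2385 in all, do not show that the knockouts acted alike there: in 2282 of them (95.7%) the interval of the difference also held the whole DKO effect. Over all genes tested the DKO and BKO effects had a Pearson r of 0.118 and a Spearman rho of 0.109, given as a description of genes measured in shared libraries.

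The largest positive differences belonged to fetal growth genes, inflammatory genes and epithelial or membrane proteins. H19, a noncoding RNA expressed from the maternal allele in fetal tissue (chr7:142575529-142578143, minus strand, GRCm38), stood at 3513, 2522, 699 and 3373 CPM in the DKO livers and 0.952, 2.0, 1.28 and 5.04 CPM in their controls. In the ARID1B experiment it stood at 2.56, 0.650, 0.714 and 0.313 CPM in the BKO livers and 0.999, 0.686, 2.63 and 1.26 CPM in theirs. Every DKO library was above every other library, and the difference was 10.62 (SE 1.07, adjusted p = 1.79e-05). Its imprinted neighbour Igf2, a fetal growth factor (chr7:142650766-142666816, minus strand), stood at 847, 680.2, 33.3 and 592 CPM in the DKO livers and 0.634, 0.544, 0.745 and 1.20 CPM in their controls. The BKO experiment held 0.836, 1.33, 0.487 and 0.279 CPM in the BKO livers and 0.187, 0.903, 0.669 and 0.677 CPM in theirs, and all 8 of those libraries lay below the lowest DKO library. The Igf2 difference was 9.12 (SE 1.52, adjusted p = 9.73e-04, edgeR), but with limma and voom it did not pass (adjusted p = 0.151). Both genes overlap other annotated transcripts (Mir675 at H19, Igf2os and Mir483 at Igf2), and with the strand setting of the counting not stated in the sources, their reads cannot be assigned to 1 strand.

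Cd63, a tetraspanin of late endosomes and secreted vesicles (chr10:128900989-128912822, plus strand), had the smallest standard error among the 12 largest positive differences. Its level was 94.7, 77.0, 84.0 and 98.2 CPM in the DKO livers and 4.12, 2.45, 2.45 and 2.04 CPM in their controls. It was 2.35, 1.74, 3.21 and 0.836 CPM in the BKO livers and 1.72, 1.55, 3.09 and 2.27 CPM in theirs. The DKO libraries sat far above all 12 others, with a difference of 5.07 (SE 0.46, adjusted p = 3.47e-06). Prom1, the membrane glycoprotein CD133 of progenitor and bile duct cells (chr5:43993620-44102032, minus strand), differed from both sides. Prom1 measured 26.0, 24.4, 39.9 and 28.3 CPM in the DKO livers and 3.07, 1.09, 2.02 and 3.24 CPM in their controls. In the other table it measured 1.99, 0.884, 2.17 and 0.418 CPM in the BKO livers and 8.12, 11.3, 4.39 and 2.90 CPM in theirs. The DKO effect was 3.67 (adjusted p = 6.51e-05) and the BKO effect -2.33, which did not pass (adjusted p = 0.0574), so that the difference of 6.0 (adjusted p = 4.54e-05) was larger than the DKO effect itself. Smpd3, a neutral sphingomyelinase, had the same layout with estimates of 2.80 in DKO and -1.90 in BKO (adjusted p = 0.422 for the latter) and a difference of 4.69 (SE 1.15, adjusted p = 0.0101); 1 DKO library, DKO-7112, was at 69.7 CPM and the other 3 between 7.51 and 10.8.

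Among the rest of the 12 largest positive differences, Cxcl1, a neutrophil-attracting chemokine, reached 6.19, Clec2h, a C-type lectin-like protein, 5.07, Olig1, a basic helix-loop-helix factor, 5.03, and Fam81a 4.57 (adjusted p from 8.56e-05 to 7.81e-04). The other 3 were acute phase or antibacterial proteins made by stressed hepatocytes, and they were unevenly high. Lcn2, a siderophore-binding lipocalin, stood at 116, 91.7, 1674 and 1039 CPM in the DKO livers and 11.3, 20.6, 11.3 and 34.6 CPM in their controls. The DKO-7112 and DKO-7137 livers were far above DKO-7068 and DKO-7070, which still exceeded every control. Orm2, an orosomucoid, and Saa2, a serum amyloid A, had the same split, with DKO levels of 58.0, 94.3, 2114 and 619 CPM and 16.3, 23.4, 778 and 449 CPM in the same order. Their differences were 4.61, 5.27 and 5.09 (adjusted p = 0.0115, 0.0109 and 0.0212), and those of Orm2 and Saa2 did not pass when only livers DKO-7068 and DKO-7070 stood for DKO, nor with limma and voom (adjusted p = 0.115 and 0.249). With the tag series (DKO-7068, DKO-7070 and their controls WT-7067, WT-7069 against the other 4) as a batch term Saa2 did not pass either (3.65, adjusted p = 0.0621). Orm2 and Saa2 have close paralogs, so reads may be shared among family members.

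Negative differences were led by liver enzymes and secreted proteins that were abundant in every other group. Ces1f, a carboxylesterase of the liver endoplasmic reticulum (chr8:93256236-93279747, minus strand), stood at 0.533, 0.756, 0.202 and 0.385 CPM in the DKO livers and 232, 201, 226 and 248 CPM in their controls. It stood at 171, 156, 139.6 and 122 CPM in the BKO livers and 157, 239.8, 176 and 155 CPM in theirs. The DKO livers had lost almost all of the transcript while the BKO libraries overlapped their controls, and the difference was -8.55 (SE 0.30, adjusted p = 7.60e-12), the smallest adjusted p of the genes named. Thrsp, the Spot 14 protein that promotes fatty acid synthesis (chr7:97412938-97417730, minus strand), stood at 24.4, 5.80, 11.5 and 9.24 CPM in the DKO livers and 1559.7, 597, 586 and 775 CPM in their controls. In the BKO table Thrsp stood at 1362, 1109, 697 and 644 CPM in the BKO livers and 584, 531, 845 and 1044 CPM in theirs. Its difference was -6.44 (SE 0.65, adjusted p = 1.48e-05).

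Of the other 10 largest negative differences, 4 were cytochrome P450 genes of drug and steroid oxidation: Cyp2a4 (-6.63), Cyp2b10 (-5.84), Cyp2b13 (-5.79) and Cyp2c69 (-5.65). Hamp2, a paralog of the iron hormone hepcidin, differed by -7.10, with 0 to 1.83 CPM in DKO against 163 to 647 in their controls and 58.7 to 193 in BKO against 265 to 487. Slc1a2, the glutamate transporter of pericentral hepatocytes, differed by -5.34, and Ugt2b37, a glucuronosyltransferase, by -5.78. Serpina1e, an alpha-1-antitrypsin paralog, differed by -7.35 although its DKO controls were uneven (278, 2144, 149.5 and 3028 CPM). For Sdr9c7, a short-chain dehydrogenase, and Serpina12, the adipokine vaspin, the BKO estimates were positive, 1.08 and 1.17, and did not pass (adjusted p = 0.0940 and 0.249), giving differences of -6.02 and -6.05. Adjusted p-values of these 10 ran from 2.94e-07 to 0.00320. Cyp2b10 did not pass with limma and voom (adjusted p = 0.0629), and the Cyp2, Serpina1, Ugt2b and Ces1 families hold near-identical copies among which reads may be split.

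**Figure D2:**
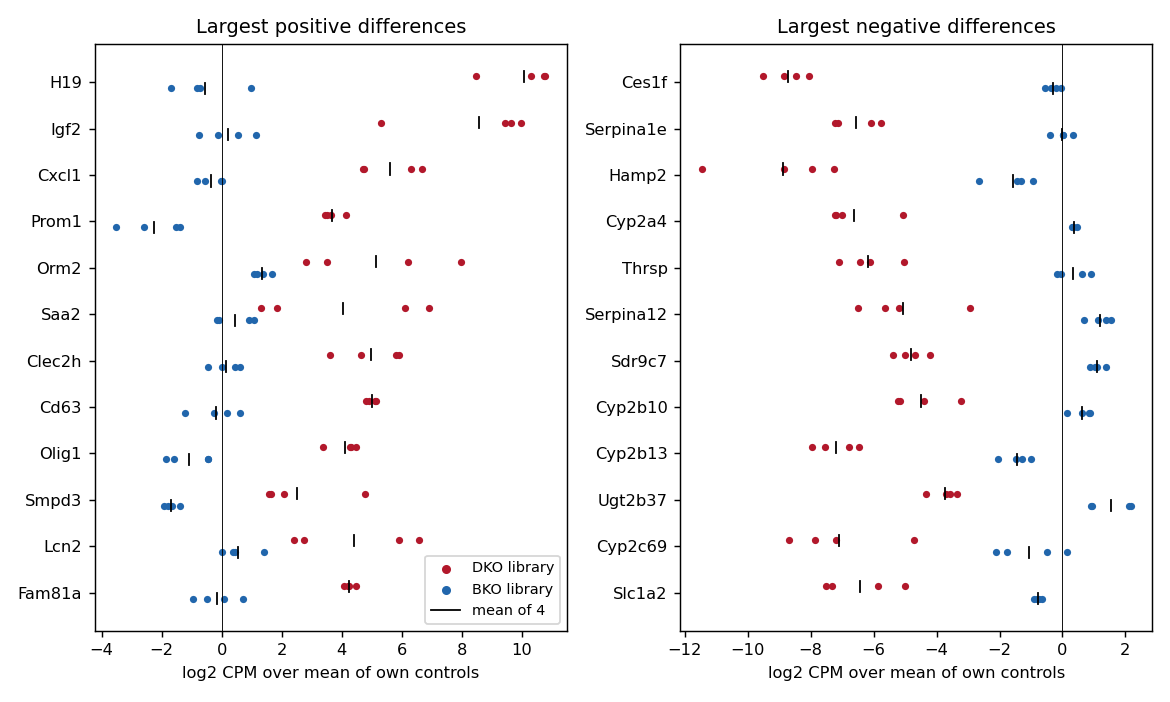
Log2 CPM of each DKO (red) and BKO (blue) library over the mean of its own controls (horizontal), for the 12 largest positive (left) and 12 largest negative (right) differences, with a bar at the mean of 4 libraries. The DKO and BKO points of a gene do not overlap, which the choice of genes required. All BKO points of Prom1 and Smpd3 lie below 0, and the DKO points of Orm2, Saa2 and Lcn2 fall into 2 pairs.

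Other genes were nearly absent outside DKO, or nearly absent from it, and for most of these the levels are given rather than a fitted fold. Wif1, a secreted Wnt inhibitor (chr10:121033960-121100650, plus strand), stood at 40.7, 30.8, 21.3 and 22.1 CPM in DKO with no count in any of its 4 controls, and at no more than 0.494 CPM in the 8 libraries of the ARID1B experiment. Against a floor of 3 counts over the DKO control group (0.0785 CPM), Wif1 was at least 366-fold higher in DKO, counting error only. Tff3, the trefoil peptide of mucous epithelia, stood at 133, 94.0, 299 and 227 CPM in DKO and at or below 0.281 CPM in the other 12 libraries. Cdhr2, a protocadherin of the intestinal brush border, stood at 124, 101, 102 and 156 CPM in DKO and below 1 CPM elsewhere. Krt20, an intestinal keratin, stood at 30.8, 24.0, 6.28 and 40.9 CPM in DKO against at most 0.106 CPM in any other library. The reverse held for Sult3a1, a sulfotransferase (chr10:33857721-33879532, plus strand), which had no count in DKO and 23.6, 53.6, 37.0 and 49.6 CPM in their controls, at least 618-fold lower against a floor of 0.0662 CPM, while BKO livers held 39.2, 43.9, 65.5 and 19.2 CPM and theirs 79.8, 33.3, 65.7 and 65.3. Mup6, a major urinary protein, and Caln1, a calneuron, also fell in DKO, with fitted differences of -5.93 and -5.44 that rest on a group under 10 counts. Krt20 had no count in BKO, and F2 was the only BKO control with any (0.0937 CPM). Without F2 neither group of the ARID1B experiment holds a Krt20 count, so that fit cannot test its difference. The adjusted p of Tff3 without F2 was 0.0787 (edgeR). Cxcl13, a B-cell chemokine with a difference of -4.17, lost its call in most alternatives (-2.47, adjusted p = 0.0502 without F4), and its BKO level rests on 1 library, F4, at 13.6 CPM against 0.832 to 2.16 in the other 3.

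Cell cycle genes are described as 2 lists, DNA replication and mitosis, which were not tested against each other. Genes of G2 and mitosis rose further in DKO than in BKO: 18 of 25 tested had a positive called difference and 0 a negative one, against 11.0% and 11.5% of all genes, with a median difference of 1.97 (median DKO effect 2.34, BKO effect 0.25) beside a median of -0.0096 over all genes. Of the genes of DNA replication 1 of 25 was called, and the median effects were 0.89 in DKO and 0.90 in BKO. In DKO 15 replication genes rose and 1 fell, and in BKO none passed. By library, the median of the replication list over own controls was 1.63, 1.17, 0.58 and 0.60 in DKO and 0.74, 0.48, 1.03 and 0.72 in BKO, so the groups overlapped. For the G2 and mitosis list it was 2.67, 2.57, 1.93 and 2.33 in DKO and 0.30, 0.47, 0.59 and 0.45 in BKO, without overlap.

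Plk1, the kinase that drives entry into and progress through mitosis, stood at 5.33, 4.37, 4.76 and 4.52 CPM in the DKO livers and 0.211, 0.272, 0.426 and 0.360 CPM in their controls. It stood at 0.888, 0.988, 0.681 and 0.627 CPM in the BKO livers and 1.19, 1.08, 0.251 and 0.387 CPM in theirs. The DKO levels were above all others, with a difference of 3.79 (SE 0.62, adjusted p = 3.37e-04). Mki67, a marker of dividing cells, differed by 1.90, Ccna2, cyclin A2, by 2.92, Cenpf, a kinetochore protein, by 3.24, Tpx2, a spindle assembly factor, by 2.52, and Top2a, the topoisomerase of chromosome separation, by 1.98. The 7 not called, among them Ccnb1 (cyclin B1, 2.59), Aurka and Aurkb (Aurora kinases, 0.84 and 1.16), had positive estimates, and Ccnb1 passed without BKO control F5 (adjusted p = 0.0362) and Aurka without DKO control WT-7114 (0.0471). When only DKO livers DKO-7112 and DKO-7137 with controls WT-7114 and WT-7139 were used, 9 of the 25 passed. Ccna2 overlaps Exosc9, and Cenpf and Mki67 also overlap other annotated genes.

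Mcm2, a subunit of the replicative helicase, stood at 20.6, 15.0, 12.7 and 10.2 CPM in the DKO livers and 7.51, 3.99, 5.75 and 1.68 CPM in their controls. In the ARID1B experiment it stood at 11.3, 11.1, 14.1 and 7.91 CPM in the BKO livers and 3.69, 2.42, 3.13 and 6.24 CPM in theirs. Every knockout library was above every control of its own experiment. Its effects were 1.62 in DKO (adjusted p = 0.00255) and 1.53 in BKO (adjusted p = 0.0906), and the difference was 0.093 with a 95% interval of -0.98 to 1.16. That interval does not show equal effects. Mcm5 (difference 0.17), Mcm4 (-0.057), Chaf1a, a histone chaperone subunit (0.049), and Uhrf1, which maintains DNA methylation (0.91), did not pass either. The called replication gene was Ccne1, cyclin E1, with a difference of 2.01 (SE 0.67, adjusted p = 0.0381), and it lost its call with limma and voom (adjusted p = 0.0818) and without any of several libraries (highest adjusted p 0.100, without BKO control F7).

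**Figure D3:**
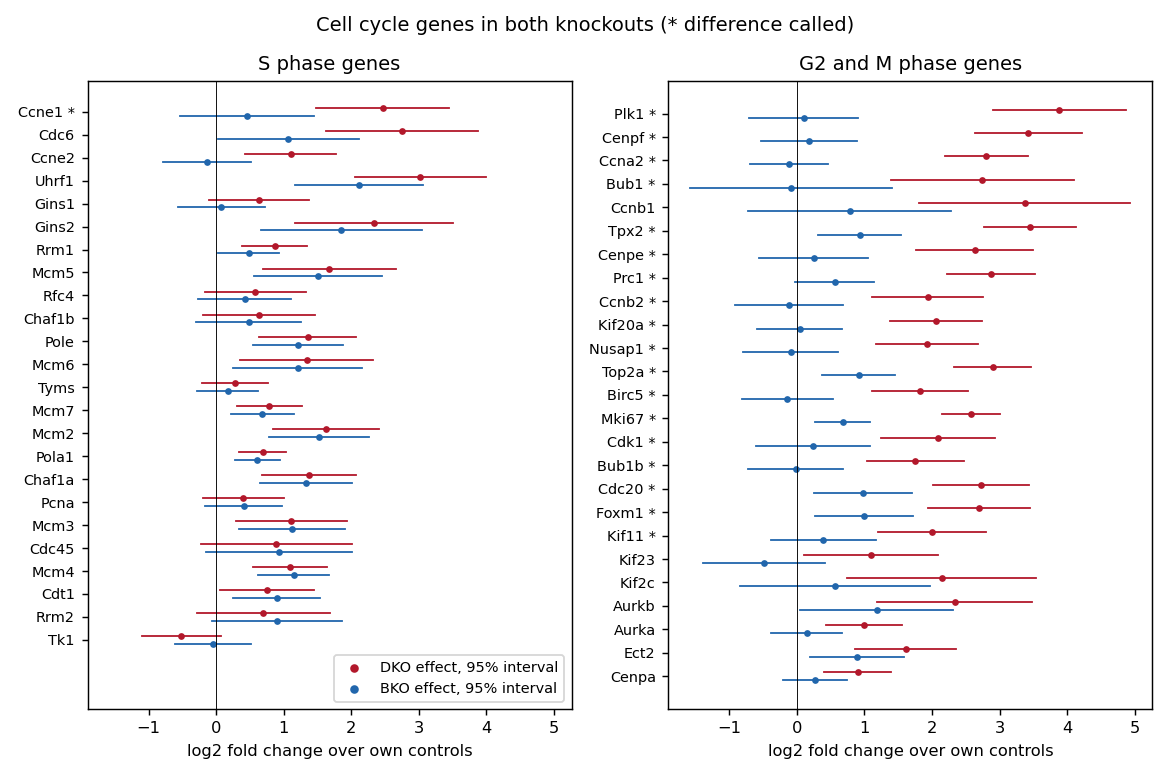
DKO effect (red) and BKO effect (blue) with 95% intervals (log2 fold change over own controls, horizontal) for 24 of the 25 tested S phase, or replication, genes (left) and 25 tested G2 and M phase genes (right, all tested); a star marks a called difference. A star stands beside 1 gene on the left and 18 on the right, where the DKO points lie to the right of the BKO points.

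Because the G2 and mitosis genes moved together, the 250 bases before their gene starts are described here, from RefSeq on GRCm38.p6. Promoters were found for 20 of 25 G2 and mitosis genes (22 promoters). A CCAAT box (CCAAT or, on the other strand, ATTGG) was present in 19 of the 22 (86.4%) and in 33.8% of all 32851 promoters of the table. The cell-cycle homology region CHR (TTTGAA or TTCAAA) was present in 10 (45.5%) against 16.0%, and an E2F motif (TTTGGCGC or TTTCCCGC, or their other-strand forms GCGCCAAA and GCGGGAAA) in 0 against 1.30%. The motifs were chosen after the values were seen, do not overlap one another by their letters in the promoters printed, and a match is no evidence of a bound site. For the replication list fewer genes matched, 19 of 25 (76%, 21 promoters). A CCAAT box was present in 14 of the 21 (66.7%), a CHR in 2 (9.52%) and an E2F motif in 5 (23.8%). The CCAAT box was thus above its share of all promoters in both lists, and no motif was tested between the lists. The promoters of 3 G2 and mitosis genes and, beside them, that of the replication gene Mcm5 are shown 5′ to 3′ on the gene's strand, with motif letters in capitals; Plk1 is chr7:122159185-122159434 (plus strand), Ccnb2 chr9:70421555-70421804 (minus), Cdc20 chr4:118437344-118437593 (minus) and Mcm5 chr8:75109259-75109508 (plus).
Plk1: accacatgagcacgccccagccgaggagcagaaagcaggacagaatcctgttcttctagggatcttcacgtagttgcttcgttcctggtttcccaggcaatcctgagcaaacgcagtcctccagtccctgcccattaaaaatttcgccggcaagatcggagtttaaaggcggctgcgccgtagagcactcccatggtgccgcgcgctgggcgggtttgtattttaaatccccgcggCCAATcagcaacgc
Ccnb2: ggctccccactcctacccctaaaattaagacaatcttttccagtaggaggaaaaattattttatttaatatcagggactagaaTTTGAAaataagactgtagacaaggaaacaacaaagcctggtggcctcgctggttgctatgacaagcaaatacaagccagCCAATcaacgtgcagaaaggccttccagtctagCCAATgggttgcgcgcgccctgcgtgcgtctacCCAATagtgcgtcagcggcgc
Cdc20: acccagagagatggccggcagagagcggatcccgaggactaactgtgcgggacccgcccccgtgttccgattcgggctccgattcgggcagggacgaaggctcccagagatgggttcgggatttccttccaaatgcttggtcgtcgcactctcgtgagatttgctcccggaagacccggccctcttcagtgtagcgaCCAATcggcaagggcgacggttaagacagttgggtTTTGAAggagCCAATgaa
Mcm5: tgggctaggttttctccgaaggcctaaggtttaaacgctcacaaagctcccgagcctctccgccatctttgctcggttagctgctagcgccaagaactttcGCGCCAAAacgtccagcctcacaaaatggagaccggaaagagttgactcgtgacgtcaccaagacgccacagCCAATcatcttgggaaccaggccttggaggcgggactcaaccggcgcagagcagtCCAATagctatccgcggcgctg
Plk1 holds 1 CCAAT box, 14 to 10 bases before its start. Ccnb2 (cyclin B2, difference 2.05) holds 3 CCAAT boxes and 1 CHR, and Cdc20 (an activator of the anaphase-promoting complex, difference 1.75) 2 CCAAT boxes and 1 CHR. Mcm5 holds 2 CCAAT boxes and an E2F motif 149 to 142 bases before its start. The promoters printed were picked for display, and an E2F motif was present in only 5 of the 21 replication promoters.

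Fetal and epithelial genes had large positive differences. Members under the filter on low counts were not tested, and a gene that is high in 1 group alone passes through that group, so counts over tested members are descriptions. Of 18 tested members of a list of 24 fetal and oncofetal liver genes, 9 had a positive called difference and 0 a negative one, with a median of 1.44. Beside H19 and Igf2 these included Scd2, a fetal stearoyl-CoA desaturase (4.55), Cd24a, a surface glycoprotein of progenitors (3.04), Peg10, an imprinted placental gene (2.79), Igf2bp3, an oncofetal RNA-binding protein (2.71), and Gpc3, the glypican of fetal liver (2.40). Afp, alpha-fetoprotein, did not pass, at -0.32 with a DKO effect of 0.26. With limma and voom in place of edgeR, 5 of the 18 passed, and the calls of Cd24a, Peg10 and Gpc3 were each lost on leaving out any of several libraries (highest adjusted p 0.0733, 0.0573 and 0.0656). Of 13 tested gut and squamous epithelial genes 9 were positive and 2 negative (median 2.89). Krt18 and Krt8, the keratin pair of simple epithelia, differed by 2.89 and 2.14, and Tm4sf4, a tetraspan membrane protein, by 2.64; the negative members were Cdhr5 (-0.87) and Wfdc2 (-2.43; adjusted p = 0.0710 without DKO control WT-7114 and 0.0632 without DKO liver DKO-7070, with a difference of -3.84 without DKO liver DKO-7068).

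Bile duct markers differed with opposite-signed medians in the knockouts. Of 18 tested members, 9 had a positive called difference and 0 a negative one, and the median was 2.62, made of a DKO median of 1.46 and a BKO median of -0.89. No marker passed for the BKO effect. Krt19, a bile duct keratin, stood at 4.19, 3.28, 0.911 and 0.578 CPM in the DKO livers and 0.952, 0.544, 0.213 and 1.32 CPM in their controls. In the other experiment Krt19 stood at 0.313, 0.442, 0.843 and 0.279 CPM in the BKO livers and 8.37, 0.505, 1.67 and 1.16 CPM in theirs. Livers DKO-7068 and DKO-7070 were above their controls and the other 2 overlapped them, and BKO control F2 was far above the rest of its group. Neither effect passed by itself (adjusted p = 0.176 and 0.251), and the difference was 4.22 (SE 1.21, adjusted p = 0.0201). Without BKO control F2 the difference was 2.81 (adjusted p = 0.0416), and with limma and voom the adjusted p was 0.136. Cftr, the chloride channel of bile duct cells (4.51), Elf3, an epithelial transcription factor (4.63), Spp1, osteopontin (4.27), Tspan8 (4.26), Epcam (3.06) and Bicc1, an RNA-binding protein (2.54), passed, whereas Sox9 (0.73), Krt7 (1.34) and Aqp1 (-0.19) did not. Summed over 21 markers the level was 212 to 977 CPM in DKO, 145 to 169 in their controls, 107 to 183 in BKO and 145 to 211 in theirs. The list's library medians in DKO were 1.76, 1.93, 0.81 and -0.04, and 2 of 18 passed with livers DKO-7112 and DKO-7137 as the DKO group and 5 with voom. Epcam lost its call on leaving out any of 5 libraries (highest adjusted p 0.0601, without DKO-7070), and Cftr and Elf3 lost theirs with voom (0.0841 and 0.162).

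Markers of non-parenchymal cells moved unequally. In whole-liver RNA more cells of a type and more RNA per cell cannot be told apart, and neither can fewer hepatocytes and less RNA in each. Stellate cell and matrix genes had 26 positive and 2 negative called differences among 35 tested, with medians of 1.98 for the difference, 1.91 for DKO and -0.0045 for BKO. Their summed level was 3584 to 5233 CPM in DKO against 1014 to 1346 in their controls, and 961 to 1378 in BKO against 1113 to 1226. Fbn1, the microfibril protein fibrillin 1, stood at 72.1, 95.1, 51.7 and 63.2 CPM in the DKO livers and 10.8, 11.9, 9.90 and 9.24 CPM in their controls. It stood at 11.1, 8.74, 11.3 and 8.99 CPM in the BKO livers and 11.2, 10.4, 12.8 and 9.62 CPM in theirs. The DKO libraries were above all 12 others, giving a difference of 2.89 (SE 0.23, adjusted p = 4.39e-07). Col1a1 (type I collagen, 4.25), Col3a1 (type III collagen, 3.03), Acta2 (smooth muscle actin, 2.85) and Pdgfrb (the stellate cell growth factor receptor, 1.82) rose more in DKO as well. The 2 negative members were Lrat, which stores vitamin A in quiescent stellate cells (-1.76), and Ecm1 (-1.88), while Reln (0.33), Des (0.85) and Dcn (0.16) did not pass, although Des did without BKO control F5-2 (adjusted p = 0.0452).

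Recruited macrophage markers were positive in 11 and negative in 0 of 19 (median 2.49), with a summed level of 670 to 808 CPM in DKO, 96.0 to 173 in their controls, 101 to 225 in BKO and 97.4 to 118 in theirs. Cx3cr1, a chemokine receptor of monocyte-derived cells, stood at 16.8, 21.5, 17.3 and 13.8 CPM in the DKO livers and 0.634, 0.816, 0.106 and 1.08 CPM in their controls. It stood at 0.731, 0.832, 1.33 and 0.871 CPM in the BKO livers and 0.875, 1.19, 1.34 and 0.967 CPM in theirs, with a difference of 4.91 (SE 0.46, adjusted p = 2.06e-06). Gpnmb (8.58), the elastase Mmp12 (7.05), the lipid-sensing receptor Trem2 (4.44) and lipoprotein lipase, Lpl (3.71), also passed; Trem2 did not without BKO controls F5-2 or F7 (adjusted p = 0.0549 and 0.0536). The fitted values of Gpnmb and Mmp12 rest on under 10 counts in the DKO control group. Gpnmb stood at 30.6, 17.1, 6.07 and 10.4 CPM in DKO and at or below 0.120 CPM in the DKO controls. Mmp12 stood at 24.0, 22.9, 11.0 and 20.5 CPM in DKO and at or below 0.317 CPM in the DKO controls. Resident Kupffer cell markers were positive in 0 and negative in 2 of 15 (13.3%, near the 11.5% over all genes), the negatives being the scavenger receptor Cd163 (-2.62) and the ficolin Fcna (-1.28), and their summed level overlapped in all 4 groups (418 to 1101 CPM); with total counts the list's median turned from -0.08 to 0.21, and without BKO liver F4 3 Kupffer cell markers were positive. Sinusoidal endothelial markers were positive in 0 and negative in 7 of 23 (Ehd3 -0.90, Ptprb -0.62, Bmp2 -0.78), but with total-count scaling 2 were positive and 0 negative, and 4 were negative without DKO control WT-7139, BKO livers F1 or F6, or BKO control F7. Of 17 lymphocyte and neutrophil markers 4 were positive and 0 negative, among them the neutrophil protein S100a9 (4.96), the leukocyte phosphatase Ptprc (1.34) and Cd5 (3.15). That is 23.5% called, beside 22.5% called and 11.0% positive over all genes. Of 19 hepatocyte markers 0 were positive and 8 negative (median -0.53), including Alb (-1.05), Ttr, transthyretin (-0.94), and Tat, tyrosine aminotransferase (-1.63), with a summed level of 110939 to 134523 CPM in DKO and 156483 to 190564 in their controls against 156039 to 180252 in BKO and 143011 to 154367 in theirs. Tat lost its call on leaving out any of 12 libraries (highest adjusted p 0.0969, without DKO control WT-7139). What these cell-type levels contribute to the other differences was not tested.

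**Figure D4:**
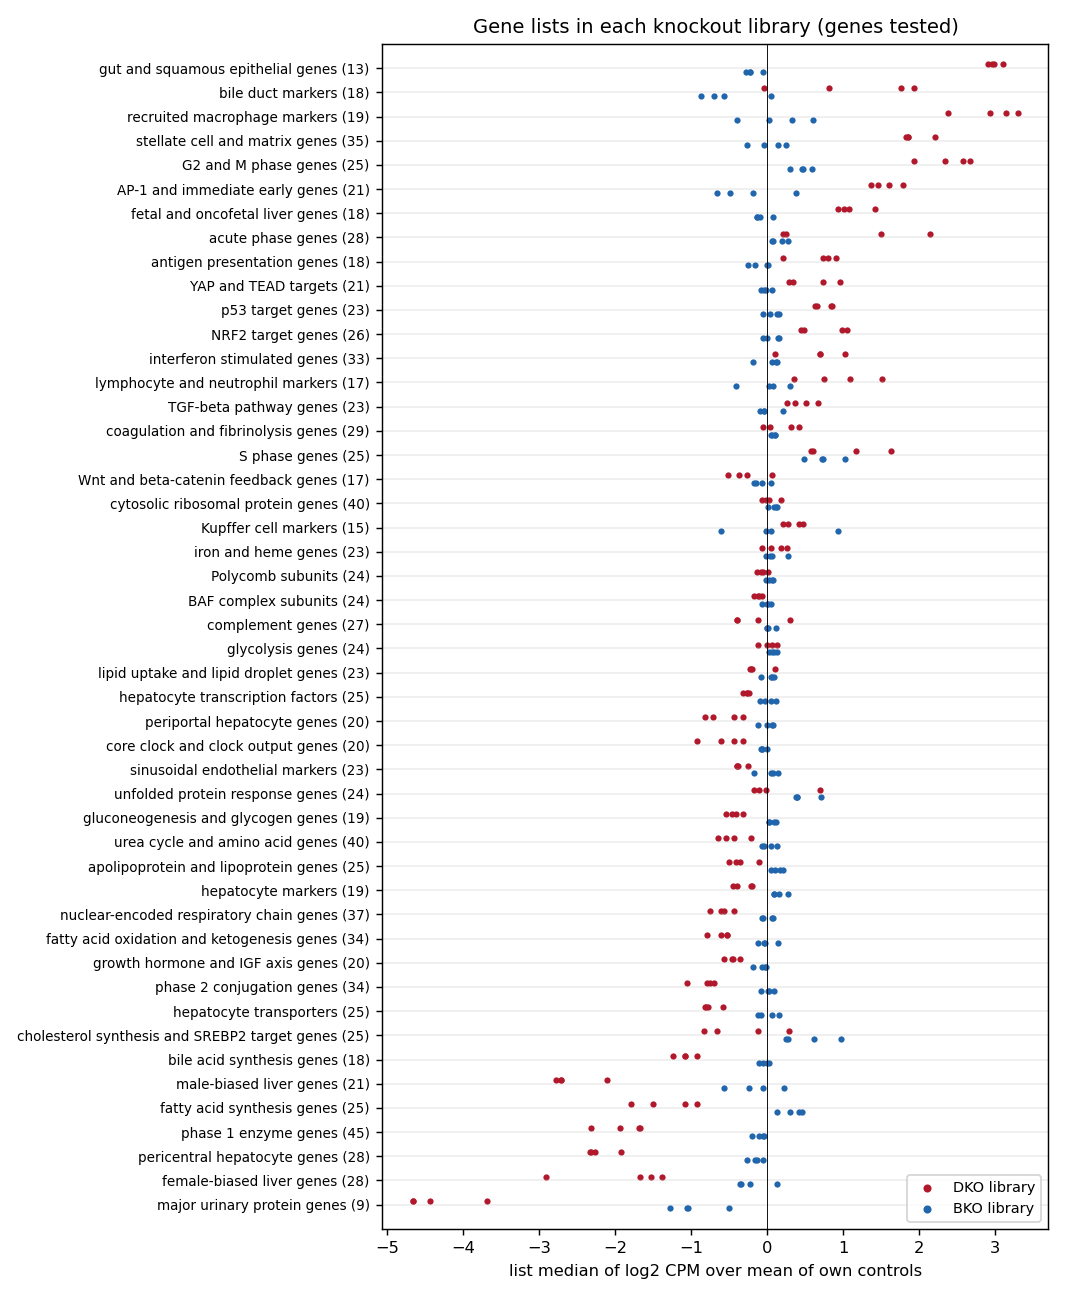
Median over the tested genes of each list of log2 CPM over the mean of own controls (horizontal), in each of the 4 DKO (red) and 4 BKO (blue) libraries, with the number of genes tested in brackets. The G2 and mitosis list has no overlap between the groups, the replication list overlaps, and the acute phase list has 2 DKO libraries near 0.2 and 2 at 1.49 or above.

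Genes of the pericentral zone, where hepatocytes near the central vein carry out drug, glutamine and bile acid metabolism, were mostly called. Of 28 tested, 21 were negative and 3 positive, with a median of -1.91 (DKO -2.22, BKO -0.12). Cyp2e1, which oxidises ethanol and solvents, stood at 495, 540.0, 499.7 and 429 CPM in the DKO livers and 3564, 5664, 5265 and 4643 CPM in their controls. In the BKO experiment it stood at 4318, 3978, 5673 and 5251 CPM in the BKO livers and 5206, 5732, 5332 and 4744 CPM in theirs. The DKO libraries did not overlap any others, with a difference of -3.16 (SE 0.23, adjusted p = 1.26e-07). Cyp7a1, the rate-limiting enzyme of bile acid synthesis (-3.29), Glul, glutamine synthetase (-1.98), Gulo, the last enzyme of vitamin C synthesis (-2.40), Cyp2c50 (-2.81) and the secreted Wnt inhibitor Notum of the Wnt feedback list (-2.91) were negative too. The positive members were Gstm3, a glutathione transferase (3.67), Slc1a4, a neutral amino acid transporter (1.17), and Cyp3a11. For Cyp3a11, described below, the BKO effect was negative and passed, while the DKO effect did not pass. Axin2, a Wnt target, did not pass (-0.047). Periportal genes were negative in 5 and positive in 2 of 20 (median -0.41), with Igf1, the growth hormone-induced growth factor, at -1.35 and Hsd17b13, a lipid droplet protein, at 1.09. Whether the zones differed from each other was not tested.

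Detoxification and transport genes followed the same direction. Phase 1 enzymes were negative in 29 and positive in 4 of 45 (median -1.87) and phase 2 conjugation genes negative in 16 and positive in 3 of 34 (median -0.77); the 3 positive calls were lost without DKO liver DKO-7070 or BKO livers F3 or F6. The glucuronosyltransferase Ugt2b1 stood at 43.7, 42.0, 46.6 and 34.9 CPM in the DKO livers and 314, 339.5, 374 and 358 CPM in their controls. Its BKO experiment levels were 200.4, 209.8, 229.7 and 182 CPM and, in controls, 183, 189, 183 and 169 CPM. The BKO libraries overlapped their controls and the DKO libraries were below all others, with a difference of -3.23 (SE 0.15, adjusted p = 3.20e-10). Ugt2a3 (-2.85) and the sulfotransferase Sult2a8 (-5.09) were also negative. Bile acid genes were negative in 12 and positive in 1 of 18 (median -1.02), including Akr1c6 (-2.42), the sterol hydroxylase Cyp27a1 (-1.72) and the bile acid receptor Nr1h4, FXR (-1.34). Hepatocyte transporters were negative in 12 and positive in 2 of 25 (median -0.94), with Abcc3 at -1.86, Slc22a30 at -2.48 and Slco2b1 at -2.45. Female-biased liver genes were negative in 12 and positive in 1 of 28, and male-biased genes negative in 9 and positive in 1 of 21; Prom1 was the positive member of the first and Gstp1 of the second, the latter lost on leaving out any of 7 libraries (highest adjusted p 0.0682, without DKO-7068). Major urinary protein genes, 9 of 21 members tested, were negative in 4 (Mup21 -4.74, Mup5 -6.22), with paralogs that share reads.

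Lipid synthesis genes had negative differences, in lists whose BKO medians were above 0. Fatty acid synthesis genes were negative in 14 and positive in 0 of 25, with a median difference of -1.69 from a DKO median of -1.51 and a BKO median of 0.33. Beside Thrsp these were led by the elongase Elovl6 (-3.65), fatty acid synthase, Fasn (-3.02), the regulator Srebf1 (-2.26), malic enzyme, Me1 (-2.25), and ATP citrate lyase, Acly (-2.22); Dgat2, the last step of triglyceride synthesis, was at -1.82 and Mlxipl, the sugar-sensing factor ChREBP, at -1.56. With livers DKO-7112 and DKO-7137 as the DKO group 8 of 25 passed, and Acly lost its call on leaving out any of 9 libraries (highest adjusted p 0.0763, without DKO control WT-7067). Cholesterol synthesis and SREBP2 target genes were negative in 5 and positive in 0 of 25. That is 20% called, beside 22.5% called and 11.5% negative over all genes. The list's median was -0.94, made of -0.31 in DKO and 0.54 in BKO, although none of its genes passed for BKO. The 5 included Sc5d, a sterol desaturase (-1.77), Stard4, a sterol transfer protein (-1.51), and Tm7sf2, a sterol reductase (-0.84). The count of 5 was 9 without DKO liver DKO-7112 and 2 with livers DKO-7112 and DKO-7137 alone. Apolipoprotein genes were negative in 10 and positive in 1 of 25 (Apoc3 -2.01, Apoc4 -1.75, Apoa5 -1.48). Lipid uptake and droplet genes were positive in 5 and negative in 2 of 23, the negatives being the monoglyceride lipase Mgll (-2.35) and the fatty acid binder Fabp1 (-1.66).

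Mitochondrial genes had negative list medians with TMM, and how many were called depended on the scaling. Nuclear-encoded respiratory chain genes were negative in 25 and positive in 0 of 37, with a median of -0.56 (DKO -0.59, BKO -0.0034). Sdha, the flavoprotein of succinate dehydrogenase, stood at 193, 184, 197 and 215 CPM in the DKO livers and 360.1, 337, 376 and 378 CPM in their controls. It stood at 329, 345, 322 and 324 CPM in the BKO livers and 318, 295, 338 and 344 CPM in theirs. The DKO libraries were below all 12 others and the BKO libraries overlapped their controls, with a difference of -0.91 (SE 0.13, adjusted p = 9.30e-05). Sdhd (-0.76) and Cox4i1, a subunit of cytochrome oxidase (-0.71), were further examples. With total counts in place of TMM, 9 of 37 were negative. Fatty acid oxidation and ketogenesis genes were negative in 10 and positive in 0 of 34 (Acat1 -1.50, Hadha -0.85, Echs1 -0.64) and, with total counts, in 2; the count was 6 without DKO liver DKO-7068, DKO control WT-7114 or BKO control F5, and 16 without BKO control F5-2. Cytosolic ribosomal protein genes, by contrast, were called in 1 of 40 (Rps18, -0.41, lost without DKO liver DKO-7068 at an adjusted p of 0.0571), with a median of -0.07 that turned to 0.21 with total counts.

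Carbohydrate, amino acid and plasma protein genes moved in part. Glycolysis genes were negative in 6 and positive in 2 of 24, with the liver pyruvate kinase Pklr at -2.43, the other isozyme Pkm at 1.67 and the glucose transporter Slc2a2 at -1.06; the list's median turned from -0.22 to 0.05 with total counts. Gluconeogenesis and glycogen genes were negative in 6 and positive in 1 of 19, among them glycogen phosphorylase, Pygl (-1.74), glycogen synthase, Gys2 (-1.82), and its targeting subunit Ppp1r3b (-2.49). Urea cycle and amino acid genes were negative in 14 and positive in 1 of 40, led by proline dehydrogenase, Prodh (-3.17), and including Haao of tryptophan breakdown (-1.68). Growth hormone and IGF axis genes were negative in 7 and positive in 1 of 20, with the receptors Ghr at -1.36 and Prlr at -2.0. Coagulation genes were negative in 8 and positive in 5 of 29 (11 positive and 3 negative with total counts, 8 positive without DKO liver DKO-7068), with protein C, Proc, at -0.82 and Serpina10 at 1.01. Complement genes were negative in 5 and positive in 3 of 27 (median -0.11, and 0.15 with total counts; 10 negative without DKO liver DKO-7112), from the lectin Mbl2 (-2.14) and C8g (-1.75) to the receptor C5ar1 (2.95). Iron and heme genes were negative in 3 and positive in 2 of 23 (21.7% called, near the 22.5% over all genes). With total counts 5 were positive and 3 negative. The hepcidin regulator Tmprss6 was at -1.25 and the heme binder Hpx at 1.86.

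Of 6 stress and signalling lists, those other than Wnt feedback had positive medians. AP-1 and immediate early genes were positive in 9 and negative in 0 of 21 (median 1.73), with Egr2 at 5.79, Nr4a1 at 4.48 (adjusted p = 0.129 with voom), Klf6 at 2.04 and Fosl2 at 1.49; the count was 5 with livers DKO-7068 and DKO-7070 as the DKO group. TGF-beta pathway genes were positive in 10 and negative in 1 of 23, among them the ligands Tgfb2 (2.97) and Tgfb3 (2.17) and the receptor Tgfbr2 (1.85). YAP and TEAD targets were positive in 5 and negative in 0 of 21, with the coactivator Wwtr1, TAZ, at 1.73, Tead1 at 0.83 and the membrane repair protein Myof at 2.20. That is 23.8% called, beside 22.5% called and 11.0% positive over all genes. NRF2 targets were positive in 10 and negative in 3 of 26 (Srxn1, sulfiredoxin, 2.25) and p53 targets positive in 7 and negative in 1 of 23 (Phlda3 3.03, Ccng1 1.01, Perp -0.65). Wnt feedback genes were positive in 3 and negative in 2 of 17, with the inhibitors Sfrp1 (3.95) and Dkk3 (2.49) positive; the median turned from -0.06 to 0.22 with total counts.

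Inflammatory lists differed between DKO livers. Acute phase genes were positive in 7 and negative in 2 of 28, led by the serpin Serpina3n (2.63) and the interleukin-1 antagonist Il1rn (3.84), and their median over own controls was 0.20 and 0.24 in livers DKO-7068 and DKO-7070 but 2.14 and 1.49 in DKO-7112 and DKO-7137. With DKO-7112 and DKO-7137 as the DKO group 19 were positive and 1 negative, and 11 were positive without either DKO-7068 or DKO-7070. Interferon-stimulated genes were positive in 9 and negative in 0 of 33 (Gbp2 3.39, Cxcl10 2.26, the nucleic acid sensor Zbp1 1.95). That is 27.3% called, beside 22.5% called and 11.0% positive over all genes. The positive count was 17 for livers DKO-7068 and DKO-7070, 3 for livers DKO-7112 and DKO-7137 and 14 without liver DKO-7137. Antigen presentation genes were positive in 9 and negative in 1 of 18, with the class II regulator Ciita at 1.83 and the class II chains H2-Eb1 and H2-Ab1 at 2.25 and 1.95. Unfolded protein response genes were negative in 3 and positive in 0 of 24 (12.5% called, near the 11.5% negative over all genes). The 3 were Edem1 (-0.78), Dnajc3 (-0.73) and Canx (-0.47), and the list medians were 0.04 in DKO and 0.52 in BKO. The calls of Canx and Dnajc3 were lost on leaving out any of several libraries. Without DKO liver DKO-7137 8 were negative, and none of the 24 passed with livers DKO-7112 and DKO-7137.

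Calls among transcription and chromatin regulators were near the share over all genes (22.5%) or below it in 3 lists and at 30.0% in the clock list. Among hepatocyte transcription factors 1 was positive and 5 negative of 25 (24.0% called). The negatives were Tbx3, a Wnt-dependent repressor (-2.28), Cebpa (-1.38), the xenobiotic receptor Nr1i3, CAR (-1.36), Nr1h4 and the oxysterol receptor Nr1h3, LXR alpha (-0.82), and the positive one was the corepressor Nr0b2, SHP (1.43). Nr0b2 and Nr1i3 lost their calls on leaving out any of 9 and 4 libraries (highest adjusted p 0.0719 and 0.0537). Hnf4a, the central hepatocyte factor, did not pass, at -0.19 with levels of 707, 691, 851 and 884 CPM in the DKO livers and 940.0, 1267, 705 and 721 CPM in their controls. The Hnf4a levels were 702, 676, 697 and 907 CPM in the BKO livers and 719.5, 924, 635 and 742 CPM in theirs, and the groups overlapped. BAF subunits were called in 3 of 24, all negative (12.5%, near the 11.5% negative over all genes): the ATPase Smarca2, BRM (-1.09), Smarcd2 (-0.72) and Dpf3 (-2.0). The median of the BAF list turned from -0.10 to 0.18 with total counts, where 3 were positive and 2 negative. Polycomb subunits were called in 3 of 24 (12.5%), Bmi1 positive (0.98) and Cbx7 (-1.58) and Pcgf5 (-0.51) negative, and with total counts 6 were positive and 0 negative; Pcgf5 was just under the threshold (adjusted p = 0.04999, and up to 0.108 with 1 library left out), Cbx7 was lost without DKO liver DKO-7068 (0.0516), and Smarca2 and Cbx7 overlap other annotated genes. Clock genes were negative in 6 and positive in 0 of 20 (Bhlhe40 -1.11, Usp2 -1.24, Hlf -1.32); the time of collection is not in the labels.

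For 8 genes the BKO effect and the difference passed while the DKO effect did not. Cyp3a11, the most abundant drug-metabolising Cyp3a enzyme of mouse liver (chr5:145854426-145879964, minus strand), stood at 1129.9, 952, 877 and 1967 CPM in the DKO livers and 1338, 1332, 1499.5 and 1997 CPM in their controls. In the BKO experiment it stood at 112, 77.3, 160.0 and 83.5 CPM in the BKO livers and 926, 965, 730.4 and 929.9 CPM in theirs. All 4 BKO libraries were below their controls, while DKO libraries overlapped theirs. The BKO effect was -3.04 (adjusted p = 5.67e-05), the DKO effect -0.32 (adjusted p = 0.344) and the difference 2.71 (95% interval 1.94 to 3.49, adjusted p = 8.15e-05). Near-identical Cyp3a copies may share these reads.

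Ces2c, a carboxylesterase, followed the same layout with 7.31, 7.06, 11.3 and 9.82 CPM in the DKO livers and 14.8, 11.0, 12.4 and 10.8 CPM in their controls. It had 0.731, 2.03, 1.01 and 0.697 CPM in the BKO livers and 4.40, 7.15, 4.55 and 5.56 CPM in theirs. Its effects were -2.23 in BKO and -0.47 in DKO, and the difference was 1.76 (adjusted p = 0.00397; 0.0742 with livers DKO-7068 and DKO-7070 alone as the DKO group). Tmem63a, a mechanically gated ion channel, differed by 0.84 (adjusted p = 0.00451) and Nox4, a hydrogen peroxide-producing NADPH oxidase, by 3.25 (adjusted p = 0.0126), although the DKO libraries of Nox4 overlapped their controls and 1 BKO control was far above the others, and its call was lost with voom (0.0526). Atg16l2, a paralog of an autophagy protein (0.80), and the alpha-mannosidase Man2b2 (0.52) passed near the threshold (adjusted p = 0.0419 and 0.0351) and were lost in several alternatives; Atg16l2 overlaps Fchsd2. Sepw1, lost on leaving out any of 6 libraries (highest adjusted p 0.0684), and Tpm2 completed the set. In all 8 genes the BKO effect was negative and the difference positive.

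Dmxl2, a regulator of the vacuolar proton pump (chr9:54365158-54501626, minus strand), was the 1 gene that passed in both knockouts with opposite signs. It stood at 128, 88.5, 123 and 111 CPM in the DKO livers and 62.4, 80.3, 76.2 and 70.1 CPM in their controls. In the BKO experiment Dmxl2 stood at 28.6, 32.8, 34.7 and 34.8 CPM in the BKO livers and 66.3, 53.4, 56.8 and 64.3 CPM in theirs. All DKO libraries were above their controls and all BKO libraries below theirs. It rose by 0.64 in DKO (adjusted p = 4.60e-04) against -0.88 in BKO (adjusted p = 0.00225), a difference of 1.52 (95% interval 1.16 to 1.88, adjusted p = 1.28e-05).

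Of the 35 genes that passed in both knockouts, 34 moved in 1 direction, and for 11 of these the size differed. Tcf24, a basic helix-loop-helix factor (chr1:9960163-9967932, minus strand), rose in both. Tcf24 stood at 68.4, 59.7, 52.1 and 77.6 CPM in the DKO livers and 10.9, 13.6, 9.90 and 13.6 CPM in their controls. It stood at 13.7, 14.9, 18.1 and 18.9 CPM in the BKO livers and 5.22, 6.50, 4.64 and 4.50 CPM in theirs, without overlap between knockout and control in either experiment. The effects were 2.43 in DKO and 1.65 in BKO, and the difference was 0.78 (95% interval 0.31 to 1.25, adjusted p = 0.0180). Ugt3a1, a sugar transferase of the glucuronosyltransferase family (chr15:9276888-9315032, plus strand), fell in both. Its levels were 0.609, 0.840, 1.21 and 0.289 CPM in the DKO livers and 16.0, 21.5, 27.8 and 26.2 CPM in their controls. They were 4.44, 5.12, 7.75 and 3.27 CPM in the BKO livers and 26.4, 35.6, 21.1 and 20.8 CPM in theirs, again without overlap, and DKO was nearly empty of the transcript. The effects were -4.95 and -2.33, and the difference -2.62 (adjusted p = 8.01e-04). Slc17a8, a vesicular glutamate transporter (-3.95 and -1.66), and Rhbg, an ammonia transporter (-3.19 and -1.19), fell further in DKO, with differences of -2.29 and -2.0. Rtkn, an effector of small GTPases, rose further (0.61), and Cyp2u1, a fatty acid hydroxylase, fell further (-1.63, lost in several alternatives). Tcf24, Rhbg, Rtkn and Cyp2u1 overlap other annotated genes.

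**Figure D5:**
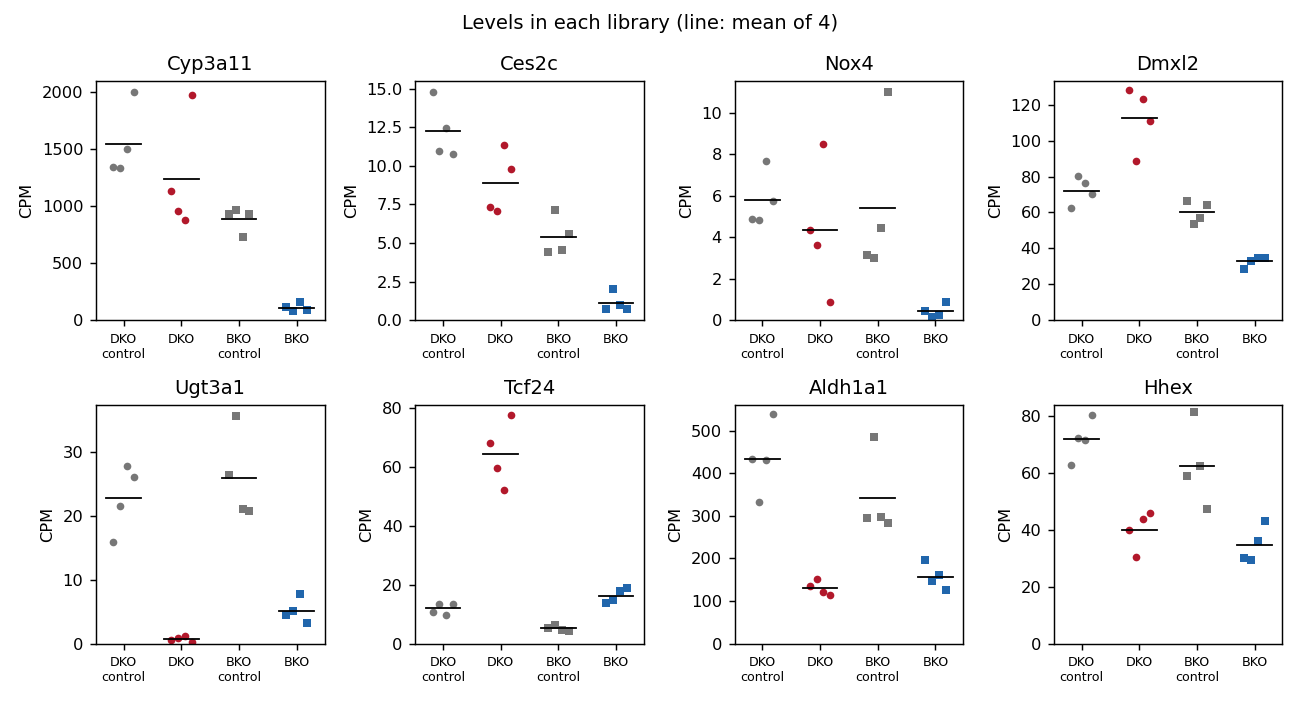
CPM (linear axes from 0) of 8 genes in each of the 16 libraries by group, with a line at the mean of 4. Cyp3a11, Ces2c and Nox4 have all BKO libraries below all BKO controls, Dmxl2 is higher in DKO and lower in BKO, Tcf24 and Ugt3a1 move in both by unequal amounts, and Hhex and Aldh1a1 are lower in both.

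In 23 genes both effects passed with 1 sign and the difference did not, 8 higher and 15 lower, counting genes by the sign of both effects. Hhex, a homeobox factor of liver and bile duct development (chr19:37434810-37440731, plus strand), stood at 40.1, 30.3, 43.7 and 46.0 CPM in the DKO livers and 62.9, 72.3, 71.6 and 80.3 CPM in their controls. It stood at 30.1, 29.3, 36.3 and 43.2 CPM in the BKO livers and 59.1, 81.4, 62.5 and 47.3 CPM in theirs, and in both experiments every knockout library was below every control. The effects were -0.84 and -0.85 and the difference 0.0076, with an interval of -0.48 to 0.50 on either side of 0. Aldh1a1, a retinaldehyde dehydrogenase of pericentral hepatocytes, had effects of -1.74 in DKO and -1.12 in BKO, with 196, 146, 160.4 and 125 CPM in BKO and 295, 486, 298 and 284 CPM in their controls. Its difference of -0.62 did not pass (adjusted p = 0.102) but did without BKO control F5-2 (adjusted p = 0.0140). Galk1, galactokinase (-0.11, interval -0.47 to 0.26), Fam126a, a phosphoinositide kinase partner (0.22, -0.14 to 0.58), Mms22l, a replication repair protein (-0.16, -0.93 to 0.61), and Dopey2 (-0.0030, -0.43 to 0.42) are the others of the largest joint effects.

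A further 4 of the 8 genes that rose in both are singled out after their values were seen, 3 because they act in DNA replication and division and the last for its size. Stil, needed for centriole duplication, stood at 3.66, 3.70, 1.82 and 2.31 CPM in the DKO livers and 1.37, 0.816, 0.745 and 0.240 CPM in their controls. It stood at 1.78, 2.42, 2.24 and 1.32 CPM in the BKO livers and 0.312, 0.108, 0.167 and 0.0967 CPM in theirs, and in both experiments every knockout library was above every control. Its effects were 1.84 in DKO and 3.41 in BKO, with a difference of -1.57 (adjusted p = 0.0819). Kntc1, a kinetochore protein, rose by 2.57 and 3.23, and Dtl, a receptor of the ubiquitin ligase that degrades the licensing factor CDT1, by 1.63 and 2.93. Sult1e1, the estrogen sulfotransferase, rose by 4.13 and 5.44. In these 4 the BKO estimate was the larger, and no difference passed with all libraries. That of Stil passed without DKO control WT-7139 (adjusted p = 0.0335) or BKO control F2 (0.0371), and that of Dtl without BKO control F7 (0.0369).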

How the data were processed

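Liver RNA was sequenced in 16 mouse libraries, and per the labels' protocols total RNA was extracted with TRIzol and RNeasy and libraries were made with a NuGEN Ovation kit. The authors deposited 2 tables of raw read counts per gene, 8 libraries in each. The submitters' processing notes name featureCounts 1.6.2, the aligner HISAT2 2.1.0 and the trimmer Trim Galore 0.4.1, and the builds GRCm38, mm10 and GRCh38 without roles. Which annotation and strand setting were used, and how multi-mapped reads were handled, is not stated in the sources used here.

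The tables were joined on gene name (24421 rows each). Names that had become dates, 27 in the BKO table, were dropped, leaving 24394. In R 4.3.3 with edgeR 4.0.16, genes passing filterByExpr (14050) were scaled by TMM and fitted in 1 robust quasi-likelihood model with a mean per group and no covariate. The tested contrast was (DKO minus its controls) minus (BKO minus its controls), with Benjamini-Hochberg adjustment over all genes tested and a threshold of 0.05. Both single effects came from the same fit, so the difference equals the DKO effect minus the BKO effect. Standard errors and 95% intervals came from the same test with 12 residual degrees of freedom plus the prior. Log2 CPM per library used a prior count of 2, and library values over own controls used the control mean of that table. Intervals and floors of 3 counts cover counting error only, or the spread among 4 libraries. In simulated counts (13701 genes) 200 genes were given a difference and the rest none. The test recovered 5.97% of differences of 1.5-fold, 35.8% of 2-fold and 80.3% of 4-fold, and 1.22% of 82 calls were false. The data had 3162 calls, so the adjustment was stricter in the simulation and these rates need not hold for the data.

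Members and the 49 gene lists (1243 entries) were chosen with earlier results of these data known. Named genes were Arid1a and Arid1b; the 12 largest positive and negative called differences with at least 10 counts in each group, a mean log2 CPM of at least 1 and no overlap between the DKO and BKO libraries over their own controls; the 4 largest by level on each side among called genes under that count; up to 6 genes each that were opposite, BKO only, alike or alike but unequal; and the 3 smallest p-values in each list. Other genes named were picked after their values were seen. A few list members are not reported here by name. The erythroid list had 3 tested members and is not described. The 6 promoter motifs planned for all called genes were not compared, because promoters were found for 75.5% of genes tested. Coordinates are from GENCODE M21 (GRCm38), where 171 of 172 named genes matched once and 72 overlap another gene. Alternatives covered scaling, filters, tools (limma 3.58.1 with voom, DESeq2 1.42.0), a minimum fold, each library left out, summed libraries, thinning, and the tag series of the DKO experiment.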

Additional observations from a re-analysis of the deposited data

Results flagged for a closer look

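Single libraries stood apart from the other 3 of their group (Dixon's 95% criterion) in 14 of 224 groups of 4 looked at, or 6.25%, over 53 genes and the library measures. Chance gives about 1 in 20 groups. The values are listed by what they touch.

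Among genes with large differences, Smpd3 in DKO liver DKO-7112 was at 69.7 CPM while the other 3 lay between 7.51 and 10.8. Cyp2a4 in DKO liver DKO-7070 was at 27.7 CPM against 6.07 to 7.08, Cyp2c69 in DKO liver DKO-7137 at 26.7 CPM against 1.62 to 4.79, and Serpina12 in DKO liver DKO-7112 at 1.11 CPM against 0 to 0.152. All of these DKO levels of Cyp2a4, Cyp2c69 and Serpina12 were below every DKO control. In DKO control WT-7114 Olig1 was at 3.09 CPM against 0.423 to 0.840. The BKO controls held Lcn2 at 18.8 CPM in F7 against 10.7 to 11.9, and Krt20 at 0.0937 CPM in F2 against 0 in the others. Cxcl13 in BKO liver F4 was at 13.6 CPM against 0.832 to 2.16.

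Among genes moved by ARID1B loss, Cyp3a11 in BKO control F5 was at 730.4 CPM against 926 to 965, which is still above every BKO liver. Aldh1a1 in BKO control F5-2 was at 486 CPM against 284 to 298, and Fam126a in BKO control F7 at 22.7 CPM against 27.8 to 28.2.

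Of the library measures, the TMM factor of DKO control WT-7139 was 0.959 against 1.00 to 1.01, and that of BKO liver F1 was 0.843 against 0.932 to 0.950. Albumin took 3.76% of counts in DKO liver DKO-7112 against 6.24 to 6.39% in the other 3.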

How the results depend on the processing

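No called gene had the opposite sign in any alternative. With total counts only, 2627 differences were positive and 744 negative. With a minimum fold of 2, 508 differences passed (303 positive, 205 negative), with 937 for DKO and 5 for BKO. With DKO livers DKO-7112 and DKO-7137 and controls WT-7114 and WT-7139 alone, 1588 passed (753 positive, 835 negative). The count for BKO alone was the least stable: 207 with DESeq2, 104 with voom, 82 in the BKO experiment alone, 33 with F5 and F5-2 summed and 26 after thinning.

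Leaving out each library in turn gave 2618 (without DKO-7070) to 3314 (without DKO-7137) called differences, 1302 to 1700 positive and 1316 to 1672 negative, 4594 to 5384 for DKO and 19 (without BKO F1) to 68 (without DKO-7112) for BKO. The cause of these shifts was not tested. No paired analysis was possible because the groups share no replicate tags.

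Of 233 genes looked at singly, 204 were called for the difference, and 135 of these kept the call in every alternative except the minimum fold; 69 lost it in at least 1, 49 of them with livers DKO-7112 and DKO-7137 alone, 31 with livers DKO-7068 and DKO-7070 alone, 24 with 1 library left out and 23 with total counts.

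The depth of the DKO experiment, at most 11016869 counts a library, limits low genes: 110 called genes had a group under 10 counts. Control levels of the experiments were over 2-fold apart in 4.71% of genes tested, 8.51% of positive calls (132 of 1552) and 2.24% of negative calls (36 of 1610).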
